A study of Mus musculus with 24 samples.

Results

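Potassium channel genes were followed in the forebrain of mice that overproduce a mutant human amyloid precursor protein. Genes were taken whose symbol starts with Kcn, the prefix of potassium channel subunits and of their partner proteins. For each gene the probe set (a group of probes designed against one transcript) assigned to that symbol alone and with the highest mean over the 24 arrays was used. Of 84 such genes, 43 had a mean above 5 on the log2 scale and are the genes described here, out of 18193 genes on the array. The threshold used mean levels over all arrays and no group difference, and the levels below are a description. Of all genes, 54.2% had a mean above 5, against 51.2% of the Kcn genes. Just inside the threshold lay Kcnn1 (5.06) and Kcnh7 (5.30), and just outside lay Kcng2 (4.98) and Kcns1 (4.97). Not all 43 code for channels: Kcnab, Kcnip and Kcnmb genes code for auxiliary subunits, and Kcnq1ot1 is a long noncoding RNA transcribed antisense to Kcnq1.

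TgCRND8 mice overproduce human amyloid precursor protein from a transgene that bears the familial Swedish and Indiana changes (APPSwe/Ind in the labels). They were compared with littermates that lack the transgene, here called controls, at 70, 80 and 150 days of age. Each of the 6 groups had 4 mice and 1 array per mouse. Forebrain was what remained after the olfactory bulb and the cerebellum with the brainstem had been cut away, so each value mixes neurons, glia and vessel cells of several regions. The promoter of the transgene is not in the labels used here.

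Potassium channels let potassium ions leave or enter the cell along their gradient and so set the resting potential and end the action potential. Voltage-gated members (Kcna to Kcnd, Kcnh, Kcnq) open on depolarisation, inward rectifiers (Kcnj) hold the resting potential, tandem-pore channels (Kcnk) carry leak current, and Kcnma, Kcnn and Kcnt channels respond to calcium or sodium inside the cell. In brain, altered firing of neurons has long been described in mice with amyloid, and glial Kcnj10 clears potassium released by active neurons.

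No potassium channel gene differed between TgCRND8 and control forebrain, at any age, or between ages, at an adjusted p under 0.05. At day 150 the microglial genes Tyrobp and C1qa rose by 1.31 and 0.54 log2 and the astrocyte gene Gfap by 1.42. All 6 microglial markers examined were higher in TgCRND8 at that age, while of 7 astrocyte markers 2 were higher and 5 lower. Among the 43 genes the largest difference at day 150 was 0.20 for Kcnh1. The largest at day 70 was 0.24 for Kcnh7 and at day 80 0.20 for Kcnj13. In 4 of the 24 arrays, from 3 different groups, Kcnt1, Kcnc1 and Kcnh1 read below all other arrays, as 1.85% of all genes did. These arrays were picked as low on the 43 genes after the values were seen, so nothing is read from this. By limma with Benjamini-Hochberg adjustment over all 18193 genes, 0 of 43 passed at day 70, where 0% of all genes passed. At day 80, 0 of 43 passed (0% of all genes), and at day 150, 0 of 43 (0.121% of all genes). For the mean of the 3 ages it was 0 of 43 (0.0385%), and for the genotype difference at day 150 against the mean of days 70 and 80 it was 0 of 43 (0.0110%). At an unadjusted p under 0.05 there were 2 of 43 genes at day 70 (3.25% of all genes and 2.80% of those with a mean above 5). There were 0 of 43 at day 80 (3.77% and 2.31%), 0 at day 150 (4.38% and 3.22%), 3 for the mean of the ages (3.16% and 2.62%) and 0 for the change of the difference (5.75% and 4.13%).

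Array medians lay between 4.28 and 4.38 and lower quartiles between 3.15 and 3.32, and the lowest value of any of the 43 genes was 4.86 (Kcnn1), above the median of every array. All 8 neuronal markers examined (7.82 to 11.8), all 7 astrocyte markers, all 6 measured oligodendrocyte markers and all 4 measured cortical and 5 measured striatal markers had means above 5. The 3 markers of the dentate gyrus, C1ql2 (4.43), Prox1 (3.97) and Dsp (3.36), and 3 of 5 choroid plexus markers did not. Normalization between arrays was not given in the sources used here. Xist, the RNA of the inactive X chromosome in females, was low in 5 arrays, 1 control of day 70 and 2 mice of each genotype at day 80. The 4 arrays that stand apart were control number 3 of day 70, control number 3 of day 80 and TgCRND8 numbers 2 and 3 of day 80. They were picked after the values were seen, as the lowest on the first principal component of the 43 genes, which held 37.1% of their variance over arrays. The first component of the other genes with a mean above 5 held 31.3%. On that component too the same 4 arrays were the lowest, at -17.6, -17.5, -9.62 and -13.1 in that order. The next lowest was TgCRND8 number 3 of day 150 at -8.66. The sign of that component was set to follow the mean of the 43 genes, so a low score is not a general low reading. A lower mean in these 4 arrays than in the other 20 was found for 53% of genes with a mean above 5. Of all genes it was found for 43.3%. The differences with the smallest p that involve day 70 or day 80 are given with and without these 4 arrays. Without them the day 80 values rest on TgCRND8 numbers 1 and 4 and on controls numbers 1, 2 and 4.

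In the 4 arrays that stand apart 31 of the 43 genes had a lower mean than in the other 20 and 12 a higher one. As a description of arrays chosen on these genes, Kcnt1 read 6.28 to 6.74 there and 7.04 to 7.41 elsewhere, a difference of means of -0.67 log2. Kcnc1 read 7.12 to 7.44 against 7.50 to 8.12 (-0.52), and Kcnh1 7.51 to 7.69 against 7.70 to 8.14 (-0.29). For these 3 of the 43 genes (6.98%) all 4 arrays lay below all 20, as for 1.85% of all genes and 3.35% of those with a mean above 5. A lower mean in the 4 was found for 72.1% of the 43 genes, 43.3% of all genes and 53% of those with a mean above 5, and since the arrays were picked on the 43 genes nothing is read from these shares. Kcnq1ot1 (-0.35), Kcnma1 (-0.31) and Kcna1 (-0.26) were lower there too, Kcnk2 was level (0.00), and Kcnj16 (0.21), Kcnmb2 (0.11) and Kcnn1 (0.11) were higher. Other probe sets with a mean above 5 were lower there too: those of Kcnt1 differed by -0.52 and -0.39, those of Kcna1 by -0.30 and -0.31, that of Kcnh1 by -0.19 and those of Kcnc1 by -0.42 and -0.39. The dim probe sets of Kcna1 (mean 3.04) and Kcnc1 (mean 4.82) differed by 0.037 and 0.11. Voltage-gated calcium channel genes, 13 measured, had a mean relative to all arrays of -0.39 to -0.23 in the 4 and -0.09 to 0.23 in the 20. Neuronal markers read -0.20 to -0.06 in the 4 and -0.12 to 0.14 in the 20, sodium channel genes -0.22 to -0.07 and -0.14 to 0.15, and astrocyte markers -0.08 to 0.02 and -0.12 to 0.23. Medians in the 4 and the 20 were -0.18 and 0.010 for endothelial and pericyte markers and -0.25 and 0.034 for choroid plexus. They were -0.15 and 0.022 for cortex, -0.19 and 0.029 for striatum and -0.17 and 0.0090 for dentate gyrus. Microglia (0.028 and -0.068), oligodendrocytes (0.038 and 0.010) and thalamus (0.058 and -0.031) went the other way. The 3' minus 5' signal of Actb, a sign of RNA integrity, was 0.69 to 0.88 in the 4 and 0.66 to 0.86 in the 20. The part of any of these in the low arrays was not tested.

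**Figure D1:**
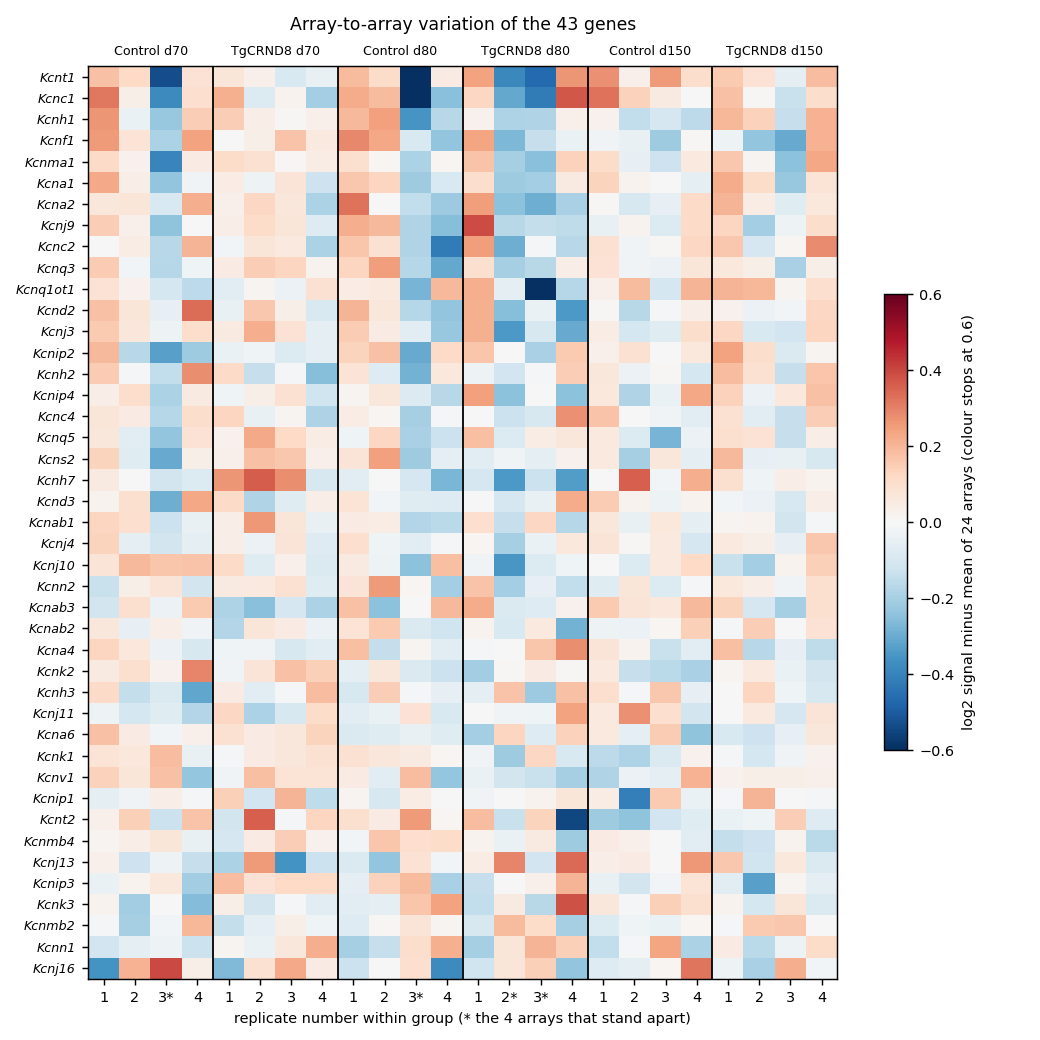
The log2 signal of the 43 genes minus each gene's mean over the 24 arrays is shown as colour (blue low, red high, saturated at 0.6), with genes ordered by their weight on the first component and arrays by group and replicate number. The starred columns are the 4 arrays that stand apart, where the upper rows from Kcnt1 and Kcnc1 are blue.

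**Figure D2:**
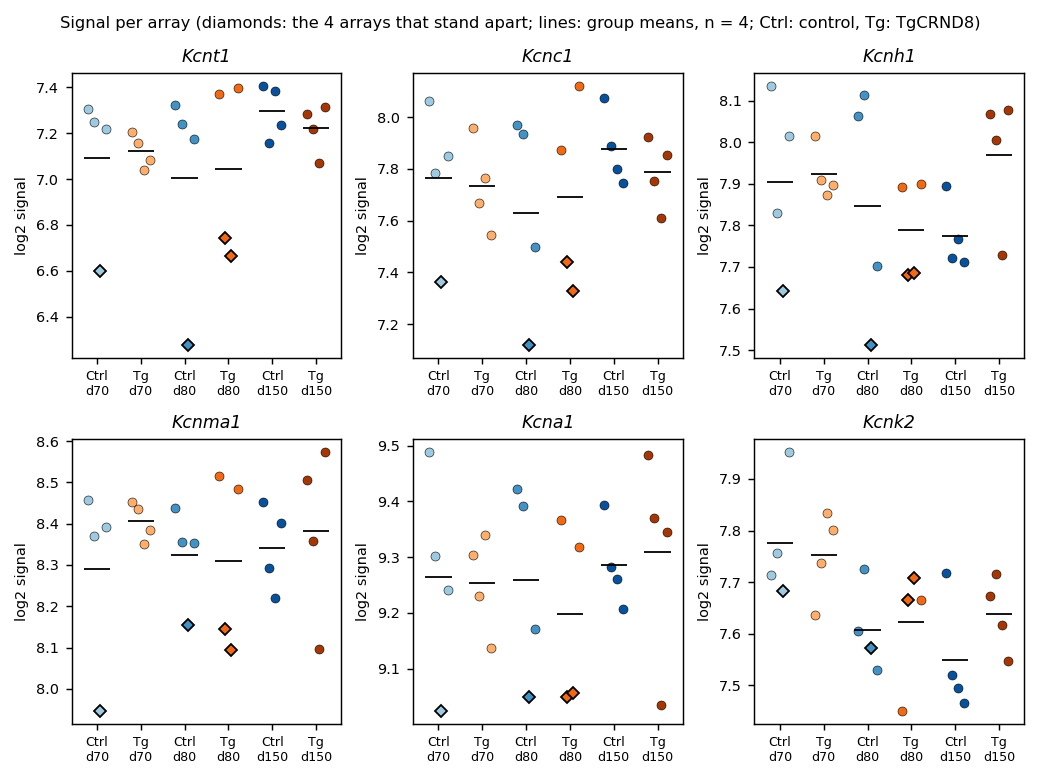
The log2 signal of Kcnt1, Kcnc1, Kcnh1, Kcnma1, Kcna1 and Kcnk2 is plotted for each array by group, with lines for group means (n = 4) and diamonds for the 4 arrays that stand apart. The diamonds are the lowest values of Kcnt1 (6.28 to 6.74), Kcnc1 and Kcnh1 and lie among the others for Kcnk2.

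Promoters are shown for genes at both ends of this array pattern, so that their letters can be seen beside the values. RefSeq promoters (build GRCm38.p6) were matched for 33 of the 43 genes, with 53 start sites in all. In the 250 bases before the start the matched sites held a median of 7 CG pairs and 58.8% G and C, against 6 and 52.4% over all 32851 promoters. The GC box GGGCGG, on either strand, was in 37.7% of them and in 32.7% of all, and TATAAA, on either strand, in 5.66% and 12.4%. The 120 bases before the start are printed 5′ to 3′ on the gene's strand with CG pairs in capitals. Kcnc1 (chr7:46396348-46396467, plus strand) and Kcnma1 (chr14:24004206-24004325, minus strand) held 15 CG pairs each, Kcnq1ot1 (chr7:143296548-143296667, minus strand) 4, Kcnmb2 (chr3:31902583-31902702, plus strand) 4, and the first of 4 starts of Kcnj16 (chr11:110967913-110968032, plus strand) 3. The first 3 genes read low and the last 2 high in the 4 arrays, and Kcnq1ot1 and Kcnmb2, at opposite ends of the pattern, held 4 CG pairs each.
Kcnc1: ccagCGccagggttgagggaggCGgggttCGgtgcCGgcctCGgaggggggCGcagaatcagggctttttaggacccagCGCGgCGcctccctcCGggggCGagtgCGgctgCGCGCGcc
Kcnma1: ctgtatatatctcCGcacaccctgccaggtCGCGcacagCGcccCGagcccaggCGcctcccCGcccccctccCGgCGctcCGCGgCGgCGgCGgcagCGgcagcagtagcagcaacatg
Kcnq1ot1: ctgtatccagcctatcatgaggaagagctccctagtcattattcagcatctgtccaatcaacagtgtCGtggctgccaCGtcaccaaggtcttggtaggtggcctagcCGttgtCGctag
Kcnmb2: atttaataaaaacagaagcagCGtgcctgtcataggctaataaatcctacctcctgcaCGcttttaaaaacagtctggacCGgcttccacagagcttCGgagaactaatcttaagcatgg
Kcnj16: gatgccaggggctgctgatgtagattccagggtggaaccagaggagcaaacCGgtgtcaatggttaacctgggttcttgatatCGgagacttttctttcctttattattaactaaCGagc

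**Figure D3:**
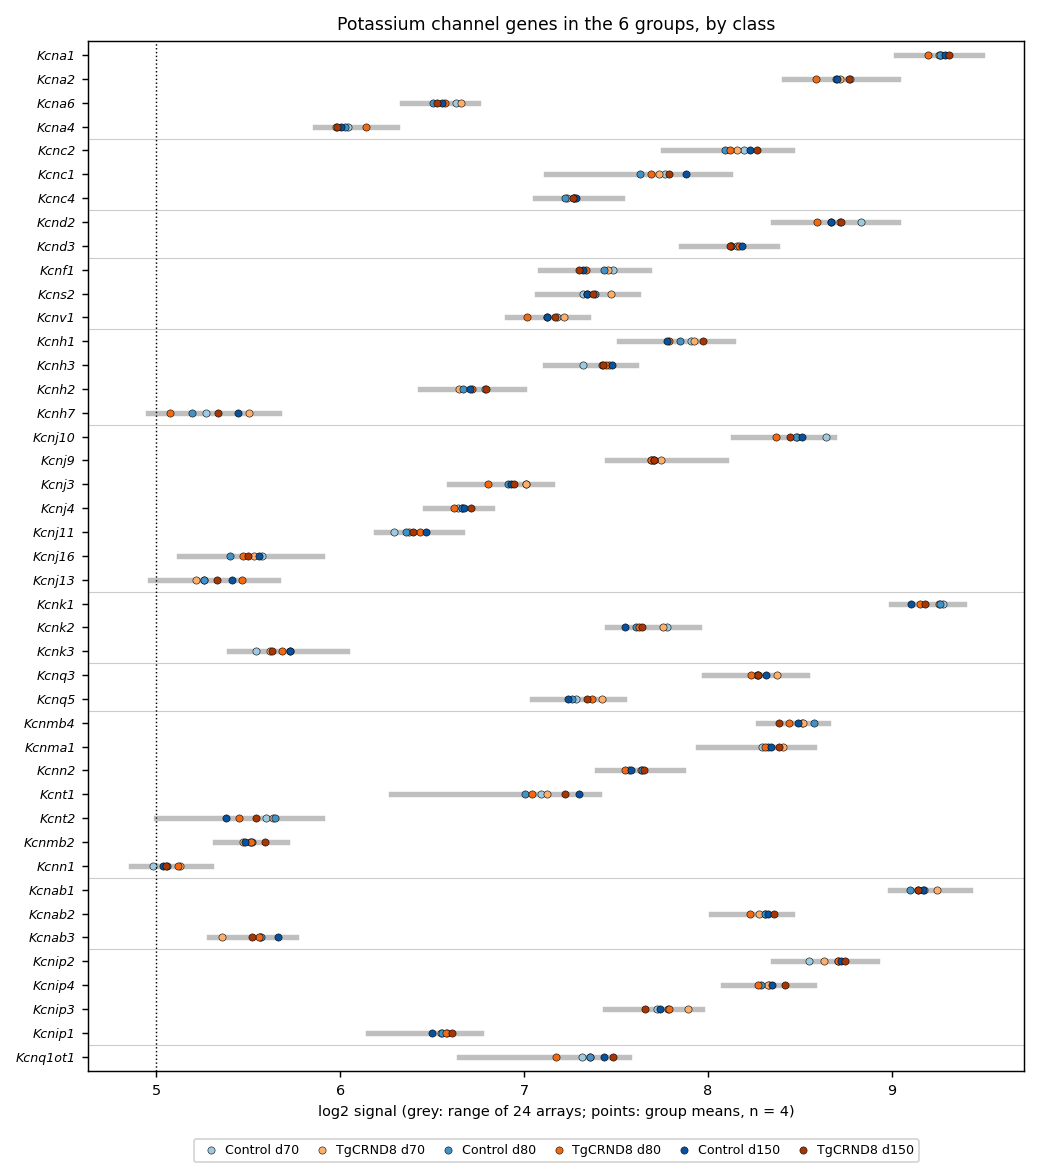
The log2 signal of the 43 genes is plotted by class, with a grey bar for the range over 24 arrays, a point for each group mean (n = 4) and a dotted line at the threshold of 5. Rows come from different probe sets, so their positions cannot be set against each other, while within a row the 6 group means lie close together inside the range of the arrays.

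Of the Kcna genes, Kcna1, Kcna2 and Kcna6 code for low-threshold delayed rectifiers that sit along axons. Kcna1 and Kcna2 make the channels beside the nodes of myelinated axons. Kcna1 at day 70 read 9.49, 9.30, 9.02 and 9.24 in controls and 9.30, 9.23, 9.34 and 9.14 in TgCRND8. At day 80 Kcna1 read 9.42, 9.39, 9.05 and 9.17 in controls and 9.37, 9.05, 9.06 and 9.32 in TgCRND8. Kcna1 at day 150 read 9.39, 9.28, 9.26 and 9.21 in controls and 9.48, 9.37, 9.04 and 9.35 in TgCRND8. The lowest Kcna1 values were those of numbers 3 of day 70 controls and day 150 TgCRND8, and the genotypes overlapped at every age. At day 70 Kcna2 gave 8.78, 8.78, 8.62 and 8.92 in controls and 8.74, 8.83, 8.77 and 8.52 in TgCRND8. Kcna2 of day 80 gave 9.03, 8.70, 8.56 and 8.49 in controls and 8.95, 8.46, 8.41 and 8.51 in TgCRND8. By day 150 Kcna2 gave 8.71, 8.61, 8.66 and 8.82 in controls and 8.91, 8.75, 8.63 and 8.77 in TgCRND8. The highest and the lowest Kcna2 values both belonged to day 80, where number 1 of each genotype was high and numbers 2 and 3 of TgCRND8 were low. Group values of the third member by signal, written as mean ± SD of 4 mice here and below, were as follows. Kcna6 averaged 6.63 ± 0.084 in controls and 6.66 ± 0.036 in TgCRND8 at day 70, 6.50 ± 0.018 and 6.57 ± 0.17 at day 80, and 6.55 ± 0.17 and 6.52 ± 0.084 at day 150. Genotype differences of all 4 genes of the class, Kcna4 included, ranged from -0.067 to 0.025 log2 at day 70, -0.11 to 0.11 at day 80 and -0.028 to 0.067 at day 150. The 95% interval for Kcna1 at day 150 ran from -0.20 to 0.24 and that for Kcna2 from -0.17 to 0.30. The other probe sets of Kcna1 gave -0.033, 0.048 and, for a dim one with a mean of 3.04, -0.10 at day 150.

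Of the Kcnc genes, Kcnc1 and Kcnc2 code for fast delayed rectifiers that let neurons such as parvalbumin interneurons fire at high rates. Kcnc1 at day 70 read 8.06, 7.78, 7.36 and 7.85 in controls and 7.96, 7.67, 7.77 and 7.54 in TgCRND8. At day 80 Kcnc1 read 7.97, 7.94, 7.12 and 7.50 in controls and 7.87, 7.44, 7.33 and 8.12 in TgCRND8. Kcnc1 at day 150 read 8.07, 7.89, 7.80 and 7.75 in controls and 7.92, 7.75, 7.61 and 7.85 in TgCRND8. Kcnc1 was low in the 4 arrays that stand apart and the genotypes overlapped at every age. Kcnc2 averaged 8.20 ± 0.15 in controls and 8.16 ± 0.12 in TgCRND8 at day 70, 8.09 ± 0.27 and 8.12 ± 0.23 at day 80, and 8.23 ± 0.069 and 8.26 ± 0.17 at day 150. Kcnc4 averaged 7.27 ± 0.13 in controls and 7.24 ± 0.13 in TgCRND8 at day 70, 7.22 ± 0.11 and 7.27 ± 0.18 at day 80, and 7.28 ± 0.10 and 7.26 ± 0.13 at day 150. Genotype differences of the 3 genes ranged from -0.041 to -0.031 at day 70, 0.030 to 0.059 at day 80 and -0.091 to 0.038 at day 150. The interval for Kcnc1 was wide, -0.44 to 0.26 at day 150, since its within-group SD reached 0.40 in day 80 controls.

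Kcnd genes code for A-type channels, which activate below threshold and inactivate fast. Kcnd2 carries this current in the dendrites of pyramidal neurons. At day 70 Kcnd2 gave 8.88, 8.77, 8.65 and 9.03 in controls and 8.66, 8.86, 8.74 and 8.61 in TgCRND8. Kcnd2 of day 80 gave 8.91, 8.77, 8.53 and 8.47 in controls and 8.91, 8.45, 8.66 and 8.35 in TgCRND8. By day 150 Kcnd2 gave 8.71, 8.54, 8.69 and 8.74 in controls and 8.73, 8.67, 8.68 and 8.82 in TgCRND8. Day 80 again held both a high array in each genotype (number 1) and the low ones, and the genotypes overlapped at every age. Kcnd3 averaged 8.16 ± 0.22 in controls and 8.12 ± 0.13 in TgCRND8 at day 70, 8.12 ± 0.073 and 8.17 ± 0.14 at day 80, and 8.19 ± 0.079 and 8.12 ± 0.055 at day 150. Kcnd2 differed between genotypes by -0.12, -0.072 and 0.058 log2 at days 70, 80 and 150 and Kcnd3 by -0.037, 0.042 and -0.068. Kcnip proteins bind the Kcnd channels and raise their surface level, and they are described with the auxiliary subunits.

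Kcnf1, Kcns2 and Kcnv1 code for silent subunits, which form no channel alone and modify Kcnb channels. Kcnf1 averaged 7.48 ± 0.21 in controls and 7.45 ± 0.073 in TgCRND8 at day 70, 7.44 ± 0.25 and 7.33 ± 0.22 at day 80, and 7.32 ± 0.098 and 7.30 ± 0.23 at day 150. Kcns2 averaged 7.32 ± 0.19 in controls and 7.47 ± 0.079 in TgCRND8 at day 70, 7.39 ± 0.20 and 7.34 ± 0.043 at day 80, and 7.34 ± 0.13 and 7.37 ± 0.13 at day 150. Kcnv1 averaged 7.18 ± 0.18 in controls and 7.22 ± 0.084 in TgCRND8 at day 70, 7.12 ± 0.18 and 7.02 ± 0.065 at day 80, and 7.12 ± 0.16 and 7.17 ± 0.0043 at day 150. Their genotype differences ranged from -0.029 to 0.15 at day 70, -0.11 to -0.044 at day 80 and -0.022 to 0.046 at day 150. For each of them the genotypes overlapped at every age.

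Kcnh genes code for channels of the eag, erg and elk groups, which shape the slow return to rest. Kcnh7 (an erg channel) and Kcnh1 (an eag channel) held the largest differences at day 70 and day 150. Kcnh7 at day 70 read 5.36, 5.30, 5.19 and 5.22 in controls and 5.57, 5.66, 5.58 and 5.21 in TgCRND8. At day 80 Kcnh7 read 5.24, 5.30, 5.20 and 5.03 in controls and 5.20, 4.96, 5.17 and 4.97 in TgCRND8. Kcnh7 at day 150 read 5.30, 5.66, 5.29 and 5.52 in controls and 5.40, 5.28, 5.34 and 5.32 in TgCRND8. At day 70, 3 of 4 TgCRND8 arrays lay above all controls and number 4 did not, while at day 80 TgCRND8 numbers 2 and 4 and control number 4 were low. The day 70 difference was 0.24 log2 (standard error 0.0962; 95% interval 0.039 to 0.44; adjusted p = 0.9997 by limma). At days 80 and 150 it was -0.12 and -0.11. It was 0.34 at day 70 without TgCRND8 number 4 and 0.21 without the 4 arrays that stand apart. At day 70 Kcnh1 gave 8.14, 7.83, 7.64 and 8.02 in controls and 8.01, 7.91, 7.87 and 7.90 in TgCRND8. Kcnh1 of day 80 gave 8.06, 8.11, 7.51 and 7.70 in controls and 7.89, 7.68, 7.69 and 7.90 in TgCRND8. By day 150 Kcnh1 gave 7.89, 7.72, 7.77 and 7.71 in controls and 8.07, 8.01, 7.73 and 8.08 in TgCRND8. Kcnh1 was higher in 3 of 4 TgCRND8 arrays of day 150 than in all controls of that age, and number 3 lay among the controls. The day 150 difference was 0.20 (standard error 0.116; 95% interval -0.042 to 0.43; adjusted p = 0.9995 by limma). A dimmer probe set of Kcnh1 differed by 0.033 there. Kcnh3 averaged 7.32 ± 0.18 in controls and 7.46 ± 0.11 in TgCRND8 at day 70, 7.42 ± 0.11 and 7.44 ± 0.19 at day 80, and 7.47 ± 0.097 and 7.43 ± 0.094 at day 150. Kcnh2 averaged 6.79 ± 0.19 in controls and 6.65 ± 0.16 in TgCRND8 at day 70, 6.66 ± 0.17 and 6.72 ± 0.11 at day 80, and 6.70 ± 0.074 and 6.79 ± 0.15 at day 150. Kcnh2 is the second erg channel here and Kcnh3 an elk channel, and the genotypes overlapped for both at every age.

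Kcnj genes code for inward rectifiers and fall into glial, G-protein-gated and other kinds. Kcnj10 makes the main potassium channel of astrocytes and is also made by oligodendrocytes. Kcnj10 at day 70 read 8.56, 8.68, 8.65 and 8.66 in controls and 8.60, 8.41, 8.52 and 8.40 in TgCRND8. At day 80 Kcnj10 read 8.54, 8.46, 8.24 and 8.66 in controls and 8.47, 8.14, 8.41 and 8.46 in TgCRND8. Kcnj10 at day 150 read 8.48, 8.40, 8.55 and 8.61 in controls and 8.35, 8.28, 8.51 and 8.63 in TgCRND8. Controls of day 70 were the highest group, at 8.56 to 8.68, and TgCRND8 number 2 and control number 3 of day 80 were the lowest arrays. Kcnj10 differed by -0.16, -0.11 and -0.066 log2 at the 3 ages, and the mean of these was -0.11 (standard error 0.0533; 95% interval -0.22 to -0.00072; adjusted p = 0.9996 by limma). Without the 4 arrays that stand apart the mean difference was -0.10. Beside it, all 6 measured oligodendrocyte markers were lower in TgCRND8 at day 70 (median -0.19), 5 of 6 at day 80 (-0.055) and 2 of 6 at day 150 (0.036). At day 70 their mean relative to all arrays was 0.18 to 0.21 in controls and -0.12 to 0.11 in TgCRND8. The 6 markers had means of 6.83 to 12.8. Of 7 astrocyte markers 5 were lower at day 70, 3 at day 80 and 5 at day 150, with medians of -0.039, 0.026 and -0.0082. Their part in the Kcnj10 values was not tested. In whole forebrain, fewer cells of a type and less RNA per cell cannot be told apart. Kcnj16 averaged 5.58 ± 0.32 in controls and 5.53 ± 0.21 in TgCRND8 at day 70, 5.40 ± 0.21 and 5.47 ± 0.17 at day 80, and 5.56 ± 0.19 and 5.50 ± 0.17 at day 150. Kcnj16, the partner that forms mixed channels with Kcnj10 in glia, thus differed by -0.045, 0.067 and -0.056.

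Kcnj3 and Kcnj9 code for GIRK subunits, which G proteins open when transmitter receptors such as that for GABA act. At day 70 Kcnj3 gave 7.09, 7.0, 6.90 and 7.04 in controls and 6.99, 7.15, 7.02 and 6.88 in TgCRND8. Kcnj3 of day 80 gave 7.09, 6.98, 6.87 and 6.71 in controls and 7.15, 6.59, 6.84 and 6.63 in TgCRND8. By day 150 Kcnj3 gave 6.98, 6.83, 6.86 and 7.04 in controls and 7.06, 6.84, 6.82 and 7.06 in TgCRND8. The low Kcnj3 values lay at day 80, in TgCRND8 numbers 2 and 4 and control number 4. Kcnj9 averaged 7.69 ± 0.16 in controls and 7.74 ± 0.082 in TgCRND8 at day 70, 7.70 ± 0.25 and 7.69 ± 0.27 at day 80, and 7.71 ± 0.087 and 7.71 ± 0.15 at day 150. Kcnj6, a further GIRK subunit, had a mean of 3.84 and fell below the threshold. Kcnj3 differed between genotypes by 0.0017, -0.11 and 0.019 log2 at the 3 ages and Kcnj9 by 0.053, -0.012 and -0.0017. Kcnj13 is the inward rectifier of choroid plexus epithelium. Kcnj13 at day 70 read 5.35, 5.20, 5.29 and 5.18 in controls and 5.13, 5.58, 4.96 and 5.19 in TgCRND8. At day 80 Kcnj13 read 5.24, 5.09, 5.41 and 5.31 in controls and 5.37, 5.62, 5.21 and 5.66 in TgCRND8. Kcnj13 at day 150 read 5.36, 5.37, 5.33 and 5.58 in controls and 5.48, 5.21, 5.39 and 5.24 in TgCRND8. At day 80, 2 of 4 TgCRND8 arrays lay above all controls. Its day 80 difference was 0.20 (standard error 0.112; 95% interval -0.027 to 0.43; adjusted p = 0.9996 by limma), or 0.30 without the 4 arrays that stand apart. At days 70 and 150 Kcnj13 differed by -0.039 and -0.084. Of 5 choroid plexus markers 4 were higher in TgCRND8 at day 80 (median 0.17). Their mean relative to all arrays was -0.49 to 0.14 in controls and -0.19 to 0.21 in TgCRND8 of that age. Kl (3.67) and Otx2 (3.11) were dim, and the part of the plexus in the Kcnj13 value was not tested. Kcnj4 and Kcnj11, the pore of ATP-sensitive channels, differed by 0.022, -0.042 and 0.042 and by 0.082, 0.076 and -0.072. Over the 7 Kcnj genes differences ranged from -0.16 to 0.082 at day 70, -0.11 to 0.20 at day 80 and -0.084 to 0.042 at day 150.

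Kcnk genes code for tandem-pore leak channels that set the resting potential. Kcnk1 at day 70 read 9.29, 9.27, 9.39 and 9.16 in controls and 9.20, 9.25, 9.27 and 9.30 in TgCRND8. At day 80 Kcnk1 read 9.30, 9.27, 9.26 and 9.22 in controls and 9.18, 8.99, 9.33 and 9.11 in TgCRND8. Kcnk1 at day 150 read 9.05, 9.02, 9.12 and 9.23 in controls and 9.20, 9.10, 9.19 and 9.23 in TgCRND8. The highest Kcnk1 array was control number 3 of day 70, and the lowest was TgCRND8 number 2 of day 80. At day 70 Kcnk2 gave 7.71, 7.76, 7.68 and 7.95 in controls and 7.64, 7.74, 7.83 and 7.80 in TgCRND8. Kcnk2 of day 80 gave 7.60, 7.73, 7.57 and 7.53 in controls and 7.45, 7.66, 7.71 and 7.67 in TgCRND8. By day 150 Kcnk2 gave 7.72, 7.52, 7.50 and 7.47 in controls and 7.67, 7.72, 7.62 and 7.55 in TgCRND8. Kcnk2, a leak channel opened by stretch and by lipids, was highest in control number 4 of day 70 and lowest in TgCRND8 number 1 of day 80, and among day 150 controls number 1 stood above the other 3. Kcnk3 averaged 5.54 ± 0.14 in controls and 5.62 ± 0.062 in TgCRND8 at day 70, 5.73 ± 0.16 and 5.69 ± 0.25 at day 80, and 5.73 ± 0.065 and 5.63 ± 0.087 at day 150. Kcnk1 differed between genotypes by -0.022, -0.11 and 0.073 at days 70, 80 and 150, Kcnk2 by -0.024, 0.014 and 0.089 and Kcnk3 by 0.076, -0.042 and -0.099. Every genotype comparison of this class overlapped between the groups.

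Kcnq3 and Kcnq5 code for subunits of the M current, which muscarinic receptors close to raise excitability. Kcnq3 at day 70 read 8.44, 8.27, 8.12 and 8.26 in controls and 8.34, 8.44, 8.42 and 8.31 in TgCRND8. At day 80 Kcnq3 read 8.42, 8.54, 8.12 and 7.98 in controls and 8.39, 8.09, 8.12 and 8.33 in TgCRND8. Kcnq3 at day 150 read 8.37, 8.27, 8.25 and 8.36 in controls and 8.35, 8.32, 8.10 and 8.32 in TgCRND8. Kcnq3 was low in number 4 of the day 80 controls and overlapped between the genotypes. At day 70 Kcnq5 gave 7.39, 7.25, 7.08 and 7.40 in controls and 7.34, 7.54, 7.44 and 7.36 in TgCRND8. Kcnq5 of day 80 gave 7.29, 7.44, 7.12 and 7.19 in controls and 7.50, 7.24, 7.36 and 7.38 in TgCRND8. By day 150 Kcnq5 gave 7.38, 7.24, 7.04 and 7.29 in controls and 7.42, 7.41, 7.18 and 7.36 in TgCRND8. Kcnq5 was higher in TgCRND8 on average at each age, by 0.14, 0.11 and 0.10, with overlapping arrays at each. The mean over ages was 0.12 log2 (standard error 0.0521; 95% interval 0.011 to 0.22; adjusted p = 0.9996 by limma), the largest positive value among the 43 genes. Its other probe set above the threshold gave 0.072 in place of it, and without the 4 arrays that stand apart the value was 0.10. Kcnq3 had a mean difference of 0.0095 with an interval of -0.11 to 0.13.

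Channels gated by ions inside the cell are coded by the Kcnma, Kcnn and Kcnt genes. Kcnma1 codes for the BK channel, opened by calcium and voltage together, and Kcnmb4 for its neuronal beta subunit. Kcnma1 at day 70 read 8.46, 8.37, 7.95 and 8.39 in controls and 8.45, 8.43, 8.35 and 8.39 in TgCRND8. At day 80 Kcnma1 read 8.44, 8.36, 8.15 and 8.35 in controls and 8.51, 8.14, 8.09 and 8.48 in TgCRND8. Kcnma1 at day 150 read 8.45, 8.29, 8.22 and 8.40 in controls and 8.51, 8.36, 8.10 and 8.57 in TgCRND8. Kcnma1 was lowest in arrays numbered 3 of day 70 controls, day 80 TgCRND8 and day 150 TgCRND8 and its genotypes overlapped. At day 70 Kcnmb4 gave 8.50, 8.53, 8.56 and 8.44 in controls and 8.39, 8.54, 8.64 and 8.51 in TgCRND8. Kcnmb4 of day 80 gave 8.47, 8.65, 8.59 and 8.60 in controls and 8.51, 8.44, 8.54 and 8.27 in TgCRND8. By day 150 Kcnmb4 gave 8.53, 8.52, 8.48 and 8.42 in controls and 8.34, 8.36, 8.51 and 8.32 in TgCRND8. At day 80 TgCRND8 number 4 was the lowest of the 24, and at day 150, 3 of 4 TgCRND8 arrays lay below all controls while number 3 lay among them. Kcnmb4 differed by 0.0097, -0.14 and -0.11 log2 at the 3 ages. The day 80 value had a standard error of 0.0716 and a 95% interval of -0.28 to 0.010 (adjusted p = 0.9996 by limma). It was -0.19 without the 4 arrays that stand apart and -0.081 without TgCRND8 number 4 of day 80. Kcnn2 averaged 7.57 ± 0.10 in controls and 7.64 ± 0.071 in TgCRND8 at day 70, 7.64 ± 0.19 and 7.55 ± 0.17 at day 80, and 7.58 ± 0.071 and 7.65 ± 0.049 at day 150. Kcnn2 and Kcnn1 code for SK channels, opened by calcium alone, and Kcnn1 differed between genotypes by 0.15, 0.060 and 0.019.

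Kcnt1 and Kcnt2 code for channels opened by sodium. Kcnt1 at day 70 read 7.31, 7.25, 6.60 and 7.22 in controls and 7.20, 7.16, 7.04 and 7.08 in TgCRND8. At day 80 Kcnt1 read 7.32, 7.24, 6.28 and 7.18 in controls and 7.37, 6.74, 6.66 and 7.40 in TgCRND8. Kcnt1 at day 150 read 7.41, 7.16, 7.38 and 7.24 in controls and 7.29, 7.22, 7.07 and 7.32 in TgCRND8. The 4 low Kcnt1 values, 6.28 to 6.74, were the 4 arrays that stand apart, and every other array read 7.04 or more. At day 70 Kcnt2 gave 5.57, 5.68, 5.41 and 5.71 in controls and 5.43, 5.90, 5.54 and 5.67 in TgCRND8. Kcnt2 of day 80 gave 5.64, 5.59, 5.80 and 5.55 in controls and 5.73, 5.41, 5.67 and 5.0 in TgCRND8. By day 150 Kcnt2 gave 5.33, 5.30, 5.42 and 5.47 in controls and 5.50, 5.52, 5.69 and 5.46 in TgCRND8. TgCRND8 number 4 of day 80 gave the lowest Kcnt2 value. Kcnt2 differed by 0.039, -0.19 and 0.16, and the day 80 value of -0.19 (standard error 0.12; adjusted p = 0.9996 by limma) was -0.041 without that array and -0.23 without the 4 that stand apart. The value of -0.23 rests on TgCRND8 numbers 1 (5.73) and 4 (5.0), the latter being that lowest array. Kcnt1 differed by 0.029, 0.040 and -0.074, and its interval at day 150, -0.45 to 0.31, reached lower than that of any other of the 43 genes at that age. Kcnmb2, a further beta subunit, differed by -0.042, -0.0037 and 0.11.

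Auxiliary subunits form no pore. Kcnab proteins bind Kcna channels and speed their closing. Kcnab1 at day 70 read 9.29, 9.26, 9.03 and 9.12 in controls and 9.20, 9.42, 9.23 and 9.12 in TgCRND8. At day 80 Kcnab1 read 9.21, 9.21, 8.99 and 9.0 in controls and 9.26, 9.02, 9.29 and 8.99 in TgCRND8. Kcnab1 at day 150 read 9.23, 9.12, 9.22 and 9.11 in controls and 9.18, 9.18, 9.05 and 9.15 in TgCRND8. Kcnab1 was highest in TgCRND8 number 2 of day 70, with overlap at every age. Kcnab2 averaged 8.31 ± 0.055 in controls and 8.28 ± 0.11 in TgCRND8 at day 70, 8.31 ± 0.13 and 8.23 ± 0.15 at day 80, and 8.32 ± 0.084 and 8.36 ± 0.076 at day 150. Kcnab3 at day 70 read 5.43, 5.63, 5.50 and 5.69 in controls and 5.35, 5.29, 5.44 and 5.35 in TgCRND8. At day 80 Kcnab3 read 5.72, 5.29, 5.54 and 5.73 in controls and 5.76, 5.45, 5.46 and 5.56 in TgCRND8. Kcnab3 at day 150 read 5.70, 5.61, 5.60 and 5.73 in controls and 5.67, 5.44, 5.34 and 5.63 in TgCRND8. At day 70, 3 of 4 TgCRND8 arrays lay below all Kcnab3 controls, and number 3 (5.44) lay just above the lowest control (5.43). Its day 70 difference was -0.21 log2 (standard error 0.0952; 95% interval -0.41 to -0.013; adjusted p = 0.9997 by limma), and at days 80 and 150 it was -0.011 and -0.14. The mean over ages, -0.12, was the most negative of the 43 genes (95% interval -0.23 to -0.0076; adjusted p = 0.9996 by limma). With the mean of both probe sets it was -0.082. Without the 4 arrays that stand apart the day 70 difference was -0.23 and the mean over ages -0.097.

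Kcnip proteins are calcium sensors bound to Kcnd channels. Kcnip3, also known as calsenilin, binds presenilins, the proteins that cut the amyloid precursor. Kcnip3 at day 70 read 7.72, 7.78, 7.83 and 7.55 in controls and 7.95, 7.85, 7.88 and 7.88 in TgCRND8. At day 80 Kcnip3 read 7.71, 7.90, 7.95 and 7.57 in controls and 7.62, 7.76, 7.79 and 7.97 in TgCRND8. Kcnip3 at day 150 read 7.72, 7.65, 7.75 and 7.85 in controls and 7.69, 7.44, 7.78 and 7.71 in TgCRND8. At day 70 the 4 TgCRND8 arrays (7.85 to 7.95) all lay above the 4 controls (7.55 to 7.83), the 1 case of 43 without overlap at that age, against 2.36% of all genes. No gene of the 43 lacked overlap at day 80 (1.25% of all genes) or day 150 (3.0%). The Kcnip3 difference was 0.17 at day 70 (standard error 0.0912; 95% interval -0.019 to 0.36; adjusted p = 0.9997 by limma), then 0.0054 at day 80 and -0.086 at day 150. A dimmer probe set gave 0.15 at day 70, and without the 4 arrays that stand apart the value was 0.20. Kcnip2 averaged 8.55 ± 0.22 in controls and 8.63 ± 0.024 in TgCRND8 at day 70, 8.71 ± 0.22 and 8.71 ± 0.17 at day 80, and 8.72 ± 0.040 and 8.75 ± 0.14 at day 150. Kcnip4 averaged 8.33 ± 0.13 in controls and 8.32 ± 0.090 in TgCRND8 at day 70, 8.29 ± 0.10 and 8.27 ± 0.24 at day 80, and 8.35 ± 0.17 and 8.42 ± 0.093 at day 150. Kcnip1 differed by 0.033, 0.026 and 0.11 and Kcnip4 by -0.0065, -0.019 and 0.067. Kcnq1ot1 averaged 7.31 ± 0.11 in controls and 7.36 ± 0.068 in TgCRND8 at day 70, 7.36 ± 0.20 and 7.17 ± 0.39 at day 80, and 7.43 ± 0.15 and 7.48 ± 0.089 at day 150. This noncoding RNA differed by 0.041, -0.18 and 0.049, and without TgCRND8 number 3 (6.64), the lowest array, the day 80 difference was -0.0076.

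**Figure D4:**
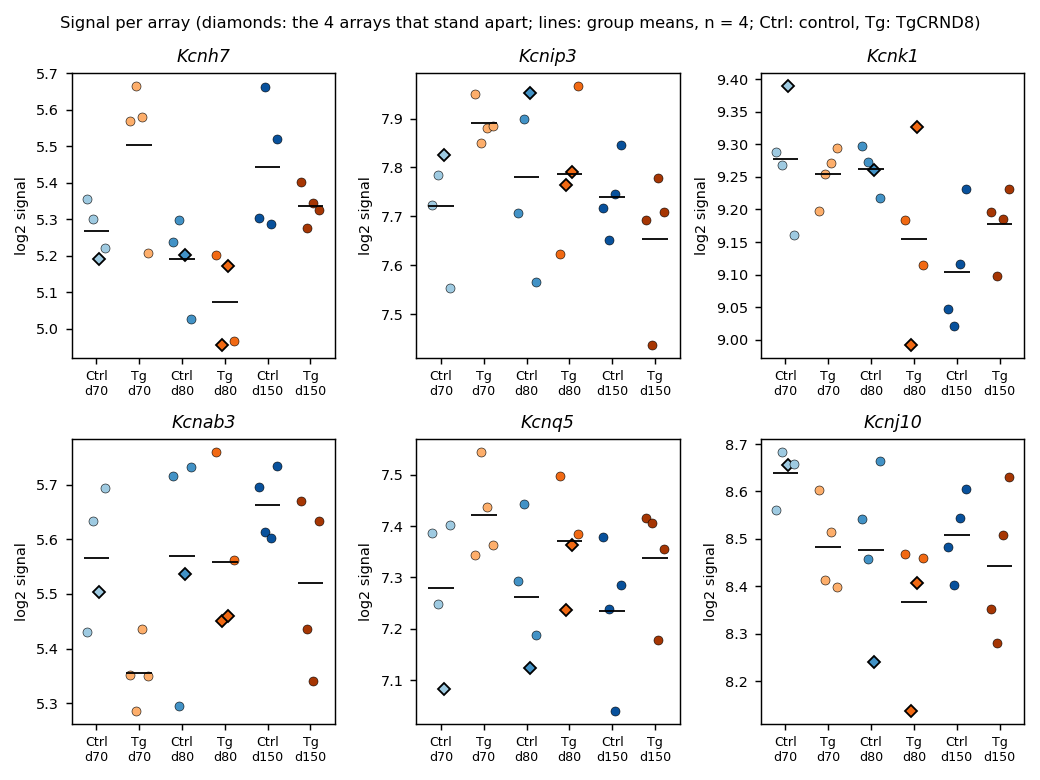
The log2 signal of Kcnh7, Kcnip3, Kcnk1, Kcnab3, Kcnq5 and Kcnj10 is plotted for each array by group, with a line for each group mean (n = 4) and diamonds for the 4 arrays that stand apart. Genotypes overlap in every panel and age except Kcnip3 at day 70, where the 4 TgCRND8 values lie between 7.85 and 7.95.

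The intervals show what sizes of genotype difference the 43 genes leave room for. At each of the 3 ages all 43 of the 95% intervals, taken gene by gene, lay within 0.5 log2 of 0. They reached from -0.41 (Kcnab3) to 0.44 (Kcnh7) at day 70, from -0.45 (Kcnq1ot1) to 0.43 (Kcnj13) at day 80, and from -0.45 (Kcnt1) to 0.43 (Kcnh1) at day 150. Within 0.25 log2 of 0 lay 17, 16 and 17 of the 43 intervals at the 3 ages, and all 43 for the mean of the ages. For the change of the difference at day 150, 39 of 43 lay within 0.5. Genotype differences at 1 age had standard errors with a median of 0.097 log2. Of the 43 genes, 24 were higher and 19 lower in TgCRND8 at day 70, 18 and 25 at day 80, and 23 and 20 at day 150. Median differences were 0.018, -0.012 and 0.019, beside -0.017, -0.020 and 0.022 for all genes with a mean above 5. These medians took both signs among the alternatives tried, and quantile normalization of the arrays turned those of day 80 (0.0095) and day 150 (-0.0064). The median within-group SD was 0.139 for the 43 genes and 0.135 for all genes above 5.

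**Figure D5:**
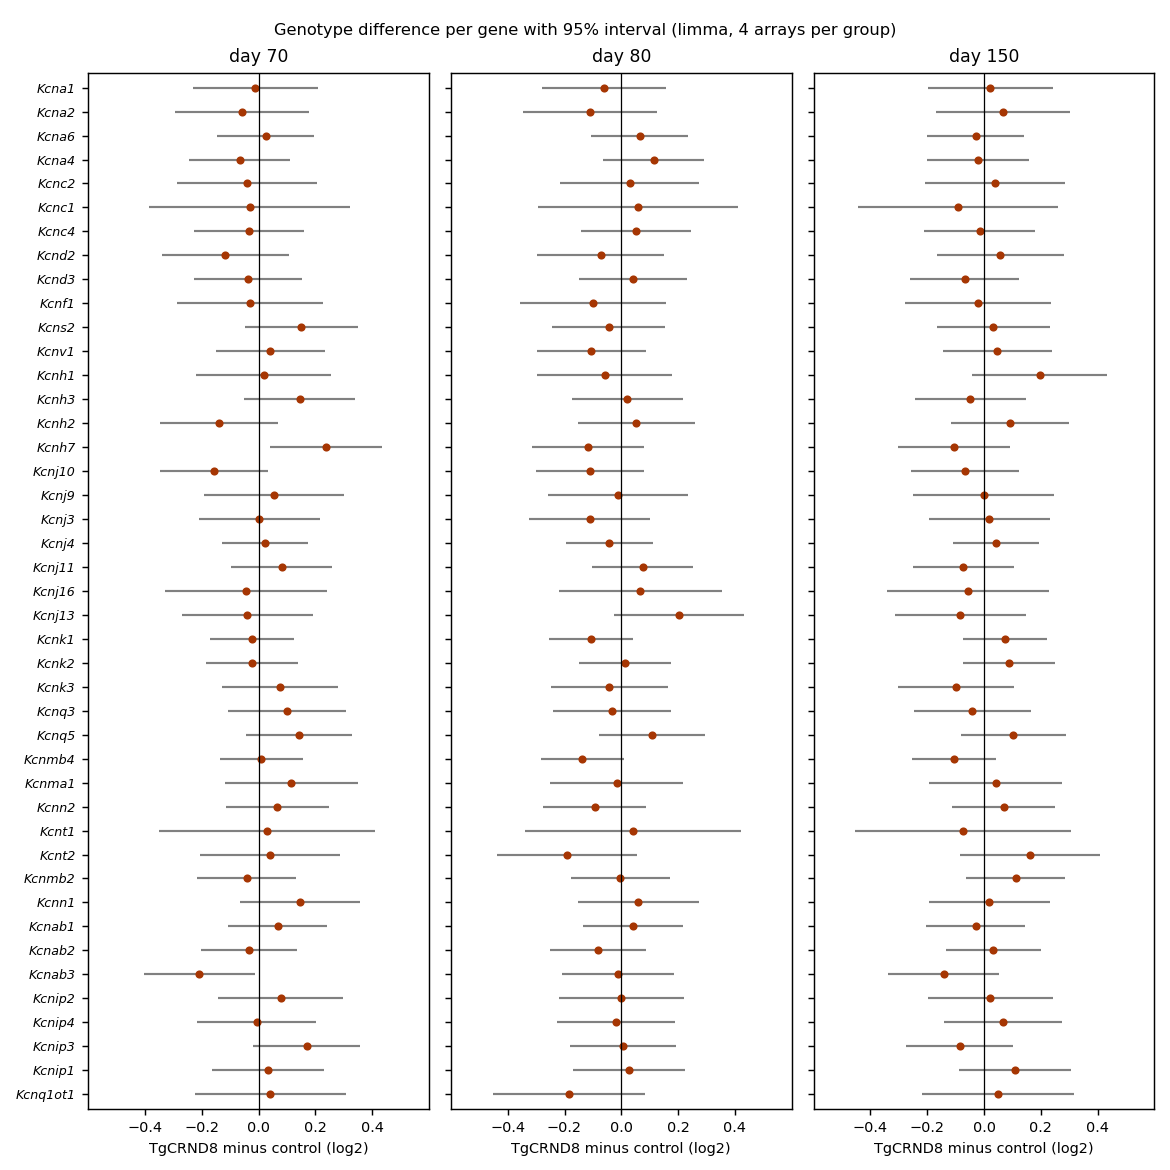
The TgCRND8 minus control difference of each of the 43 genes is plotted in log2 at days 70, 80 and 150, with bars for the 95% interval from limma (4 arrays per group). All bars lie within 0.5 of 0, and at days 80 and 150 every bar crosses 0.

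Age moved no potassium channel gene past the threshold either. From day 70 to day 80, over both genotypes, 0 of 43 genes passed by limma (0% of all genes), from day 80 to day 150 0 of 43 (0.0110%) and from day 70 to day 150 0 of 43 (0.0770%). In controls alone 0 of 43 passed from day 70 to day 150 (0.0220%), and in TgCRND8 alone 0 of 43 (0.0879%). Over all 6 groups the limma F-test passed 0 of 43 (0.121%). At an unadjusted p under 0.05 the counts were 4 of 43 from day 70 to 80 (6.39% of all genes and 5.12% of those with a mean above 5), 2 from day 80 to 150 (4.89% and 4.83%) and 2 from day 70 to 150 (5.93% and 6.98%). They were 3 in controls (7.99% and 8.60%), 1 in TgCRND8 (2.64% and 2.14%) and 1 for the F-test (4.46% and 4.05%). That 1 gene was Kcnh7 (F = 5.50, adjusted p = 0.432 by limma).

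Kcnh7 had a lower mean at day 80 than at the ages on either side. It differed by -0.25 log2 from day 70 to day 80 (standard error 0.068; adjusted p = 0.701 by limma) and by 0.26 from day 80 to day 150 (adjusted p = 0.557 by limma). Within genotypes the first difference was -0.076 in controls, whose arrays of both ages overlapped, and -0.43 in TgCRND8, and the second was 0.25 and 0.26. The difference between genotypes in these steps was not tested. Both age differences use the same 8 day 80 arrays, of which 3 stand apart. Without the 4 arrays that stand apart they were -0.26 and 0.25. Xist was low in controls numbers 1 and 4 and TgCRND8 numbers 1 and 3 of day 80. Otherwise it was low only in control number 4 of day 70, so the ages compared differ in Xist as well. Kcnk2 had a lower mean at day 150 than at day 70 (difference -0.17, standard error 0.0558; adjusted p = 0.613 by limma), with -0.23 in controls alone and -0.11 in TgCRND8 alone. Kcnk1 differed by -0.12 over the same ages (adjusted p = 0.779 by limma), with -0.17 in controls and -0.077 in TgCRND8, and its second probe set by -0.21. Without the 4 arrays the Kcnk2 and Kcnk1 values were -0.19 and -0.11. Kcnip3 in TgCRND8 read 7.85 to 7.95 at day 70 and 7.44 to 7.78 at day 150, without overlap, the 1 of 43 genes for which this held against 2.49% of all genes. This difference was -0.24 (adjusted p = 0.9998 by limma), and it shares the day 70 TgCRND8 arrays with the genotype difference of day 70. In controls 0 of 43 genes lacked overlap between days 70 and 150 (4.58% of all genes). Oligodendrocyte markers were lower at day 150 than at day 70 in all 6 of 6 measured genes, of which 2 fell by limma. Their mean relative to all arrays lay at 0.18 to 0.21 in controls of day 70 and -0.20 to -0.06 in those of day 150. Its part in the Kcnk1 and Kcnk2 values was not tested.

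The direction of the 43 genes with age is given as fitted, with other scaling and without the 4 arrays. Of the 43, 10 were higher and 33 lower at day 80 than at day 70, and 31 were higher and 12 lower at day 150 than at day 80. Of all genes with a mean above 5, 31.8% were higher in the first step and 52.7% in the second. With quantile normalization the first split was 23 and 20, and the second 28 and 15. Without the 4 arrays that stand apart the splits were 19 and 24, and 17 and 26. Of these 4 arrays 3 belong to day 80, and all were picked as low on the 43 genes. Leaving them out was thus set to raise day 80, and nothing is read from that change. Median differences were -0.032 and 0.027, and without the 4 arrays -0.018 and -0.016. For all genes with a mean above 5 the medians were -0.029 and 0.0044, and without the 4 arrays -0.028 and -2.6e-05. The first median of the 43 genes was thus close to that of all genes above 5.

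Genes that work with potassium channels were read from the same fit, and 0 rose and 0 fell between genotypes at any of the 3 ages in each of 6 lists. Of 18 measured partners of voltage-gated channels, such as anchoring and axonal adhesion proteins, 8 were higher and 10 lower at day 70, 8 and 10 at day 80, and 14 and 4 at day 150. The smallest p belonged to Abcc9 (-0.28) and Adam22 (0.12) at day 70, Dlg2 (-0.26) and Amigo1 (-0.15) at day 80 and Dpp10 (-0.098) and Cntnap2 (0.11) at day 150. Dpp10 is a partner of Kcnd channels, and Cntnap2 gathers Kcna channels beside the nodes. Of 16 G proteins, receptors and regulators upstream of GIRK channels 6 were higher and 10 lower at day 70, 4 and 12 at day 80, and 8 and 8 at day 150, where Oprm1 (-0.19) and Gnai2 (0.13) came first by p. Of 10 genes of the sodium-potassium pump and chloride transporters 6 were higher and 4 lower at day 70, 3 and 7 at day 80, and 5 and 5 at day 150, where Fxyd1 (0.24) and Slc12a2 (-0.11) came first. Sodium channel genes, 9 measured, split into 5 higher and 4 lower, 6 and 3, and 4 and 5 at the 3 ages, with Scn2b (0.069) and Scn2a (0.087) first at day 150. Calcium channel genes, 13 measured, split into 9 higher and 4 lower at day 70, 3 and 10 at day 80, and 9 and 4 at day 150, with Cacna1d (0.13) and Cacna1c (0.18) first at day 150. The 3 HCN pacemaker genes split into 1 and 2, 1 and 2, and 2 and 1, with Hcn2 (0.037) and Hcn3 (-0.031) first at day 150. Median differences at day 80 were -0.017 for the partners, -0.020 upstream of GIRK channels, -0.0084 for pump and transporters, 0.0061 for sodium, -0.045 for calcium and -0.011 for HCN channels, beside -0.020 for all genes with a mean above 5. Median differences at day 150 were 0.015, 0.00087, 0.0073, -0.0073, 0.029 and 0.014 in that order, beside 0.022 for all genes with a mean above 5. The adjusted p of the genes named here was 0.9995 to 0.9997 by limma.

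Repeat measurement within the array was limited. Of the 43 genes, 10 had a single probe set, among them Kcnh7, Kcnk2, Kcnj10, Kcnmb4, Kcnt2 and Kcnj13. Another 37 probe sets above 5 covered 25 of the genes. They had the sign of the probe set used in 24 of 37 at day 70, 24 at day 80 and 20 at day 150 for the genotype difference, and in 31 of 37 for day 150 against day 70. For Kcnab3 the second probe set gave -0.09, -0.08 and 0.04 at the 3 ages, beside -0.21, -0.011 and -0.14 for the one used.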

How the data were processed

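RNA of 24 forebrains was made into biotin-labelled cRNA and hybridised to Affymetrix mouse arrays, 1 per mouse, per the labels' protocols. The authors deposited 1 log2 value per probe set and array. Their normalization was not given in the sources used here, and the log2 scale was read from the range of the deposited values. Of 45101 probe sets, 34945 had 1 gene symbol, 932 several and 9160 none, and 64 were controls. Gene identifiers of 34741 matched the RefSeq gene table, and 0 symbols were updated.

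One probe set per gene (highest mean over 24 arrays) gave 18193 genes. The deposited log2 values were fitted without further scaling with limma 3.58.1 in R 4.3.3 (lmFit and eBayes, 6 group means), with Benjamini-Hochberg adjustment over all genes and a threshold of 0.05. The script was tested on simulated data. Intervals are at 95%, gene by gene. The p-values rest on the spread between mice within groups, pooled over the 6 groups (18 residual degrees of freedom) and moderated over all genes (7.47 prior degrees of freedom). Each group had 4 arrays, and that number limits the precision.

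The 43 genes and all gene lists were chosen with earlier results of these data known. Values per array are given for the 3 smallest p in the genotype comparison of each single age and for a fixed set of well-known subunits, and group means for the 3 brightest genes of each class. The rule left out Kcnt1 and Kcnq5, whose values per array are shown, and Kcnj16, Kcnmb2, Kcnn1, Kcna4, Kcnj4, Kcnj11 and Kcnip1. Those were named after their values were seen. Other scalings, filters, probe set rules, covariates and arrays left out were tried as alternatives, and 4 of them (leaving out the 4 arrays that stand apart, a component of the other genes as covariate, age steps within each genotype for 3 genes, and day 80 values of Kcnq1ot1 without single arrays) were chosen after seeing the data. Members of the fixed set that are absent from the text were not analysed here.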

Additional observations from a re-analysis of the deposited data

Results flagged for a closer look

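Among 20 genes with values per array, 120 groups of 4 arrays were searched for a highest or lowest value far from the other 3, a search in which chance marks about 1 in 20 groups. It marked 5 of the 120, near what chance marks, and all were low values. Kcnt1 read 6.60 in control number 3 of day 70, where the other 3 controls read 7.22 to 7.31. Kcnt1 read 6.28 in control number 3 of day 80, against 7.18 to 7.32 in the others. Kcnma1 read 7.95 in control number 3 of day 70, against 8.37 to 8.46. Those 3 values belong to arrays that stand apart, both for many potassium channel genes and on the first component of the other genes. Kcnk2 read 7.45 in TgCRND8 number 1 of day 80, against 7.66 to 7.71, and Kcnq3 read 8.10 in TgCRND8 number 3 of day 150, against 8.32 to 8.35. Neither of these arrays is among the 4 that stand apart.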

How the results depend on the processing

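Over 37 settings the count of potassium channel genes past an adjusted p of 0.05 was 0 in all 382 recomputed counts of the 11 comparisons, and leaving out each of the 24 arrays in turn gave 0 to 0. At an unadjusted p under 0.05 these counts ranged from 0 to 4 at day 70, 0 to 4 at day 80 and 0 to 1 at day 150 for genotype, and from 1 to 8 between days 70 and 80. The 995 other recomputed values kept their direction and their side of the threshold. Medians over the 43 genes are not among them, and all 10 took both signs. The Kcnh7 difference at day 70 ranged from 0.18 to 0.34, Kcnab3 from -0.25 to -0.15, and Kcnj13 at day 80 from 0.14 to 0.30. Kcnt2 at day 80 ranged from -0.29 to -0.041, the latter without TgCRND8 number 4. The smallest adjusted p of the F-test for Kcnh7 was 0.0712, without TgCRND8 number 4 of day 70. Kcnq5 ranged from 0.066 (mean of all probe sets) to 0.14. A pseudocount could not be varied because the values are already log2, and fits on only the arrays compared were not run for the mean of ages, the change of the difference and the F-test.

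Replicate numbers are not stated to pair the mice, and the main fit did not use them. Same-numbered arrays were more alike at the median than other pairs. Deviations from the group means over same-numbered arrays correlated at -0.39 to 0.76 over 60 pairs (median 0.21, 39 above 0.1), against a median of -0.044 over 180 other pairs, and 12 of 24 arrays correlated best with an array of their own number. With the replicate number as a block 0 of the 43 genes passed in every comparison run. Number itself passed the limma F-test for 4 of the 43 genes (9.30%), 7.23% of all genes and 12.4% of those with a mean above 5. They were Kcnma1, Kcnc1, Kcnt1 and Kcnip2, which in arrays numbered 3 deviated from their group means by -0.20, -0.25, -0.29 and -0.16.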

Other observations

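The 41 Kcn genes with a mean of 5 or below also gave 0 calls by limma in the genotype comparisons. At an unadjusted p under 0.05 by limma they counted 3 of 41 at day 70 (3.25% of all genes), 1 at day 80 (3.77%) and 1 at day 150 (4.38%). The smallest p belonged to Kcnmb4os2 at day 70, an RNA antisense to the Kcnmb4 gene (difference 0.30, standard error 0.0890, adjusted p = 0.9997 by limma), and to Kcnk15, a tandem-pore gene, at day 80 (0.22, adjusted p = 0.9996 by limma). The GIRK gene Kcnj6 had group means of 3.75 and 3.81 at day 70, 3.88 and 3.89 at day 80, and 3.99 and 3.70 at day 150 (control, then TgCRND8). These values lie below the median of every array, so they come from dim signal.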
